A study of Mus musculus with 20 samples.

Results

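Salivary glands of 5 C57BL/6J mice at 16 weeks of age were compared with those of 5 mice at 12 weeks. The samples are the 10 arrays whose labels give these ages, out of 20 arrays in all, with 5 mice at each of 4, 8, 12 and 16 weeks. All mice were labelled male, the labels name no treatment, transgene or deletion at any age, and the mice served as the healthy strain beside a strain with Sjögren's syndrome-like disease, which was not analysed here. Glands were freed of lymph nodes, and total RNA of each mouse was hybridized to its own Affymetrix 3′ expression array of the mouse genome. Values are log2 signals, so that a difference of 1 is a doubling of signal, and 18194 genes were tested, each by its brightest probe set. The question was which genes and functions differ between these ages in a healthy gland. Calls are given on the log2 values and again after removal of the trend of change on mean signal, which is described before the genes, and other counts are on log2 values unless said otherwise.

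Of 25 lists of genes by function, those with the most genes that passed concerned the supply of serine, asparagine and one carbon units, and the output of the circadian clock. Lists and members were chosen with earlier results of these data known. Their counts of called genes, here and below, therefore describe the lists and are no test of them. Cells make serine through Phgdh, Psat1 and Psph, pass its carbon to folate through Shmt2, Mthfd2 and Aldh1l2, and raise many of these genes through the transcription factor Atf4 when amino acids run short or the endoplasmic reticulum (ER) is under load. The clock runs in most tissues, salivary glands included: Clock and Arntl drive Per, Cry and Nr1d genes, whose products feed back on them, and the factors Dbp, Tef and Hlf carry the rhythm to further genes.

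A pair of properties of the 10 arrays bears on every value. Xist, the RNA of the inactive X chromosome of females, had log2 signals from 9.08 to 10.72 on all 10 arrays, among the brightest genes, and the Y-linked gene Eif2s3y had signals from 2.07 to 2.97, among the dimmest, which goes against the label male at both ages alike. The Y-linked genes Kdm5d and Uty were less dim, with signals from 3.89 to 4.56 and from 5.14 to 5.49. Replicate 1 at 16 weeks stood apart from the other arrays of its age. The SD of gene values within an array was 1.655, 1.599, 1.651, 1.669 and 1.628 at 12 weeks, and 1.745, 1.443, 1.518, 1.385 and 1.464 at 16 weeks. All arrays at 16 weeks but replicate 1 lay below those at 12 weeks, and replicate 1 lay above them. A narrow spread was not particular to 16 weeks. At 8 weeks the SD was 1.598, 1.503, 1.436, 1.57 and 1.382, below every array at 12 weeks, and at 4 weeks it was 1.554, 1.548, 1.657, 1.718 and 1.9. The means at 12 and 16 weeks were 1.64 ± 0.0274 and 1.51 ± 0.139 (SD, n = 5 each), a difference that did not pass a two-sided exact permutation test (p = 0.0714, smallest possible 0.00794). When 1 array was left out, the same exact permutation test gave p = 0.00794 without replicate 1 at 16 weeks and between 0.0873 and 0.151 without any other array. The difference between 3′ and 5′ probe sets, a sign of RNA quality, was 2.69 ± 0.232 at 12 weeks and 2.40 ± 0.457 at 16 weeks for Gapdh (SD, n = 5 each, exact permutation p = 0.222). For Actb it was 3.51 ± 0.536 and 3.04 ± 1.01 (exact permutation p = 0.373), with arrays at 16 weeks from 1.78 to 4.21. Signal was thus higher at the 3′ end at both ages, and unevenly so between arrays.

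**Figure D1:**
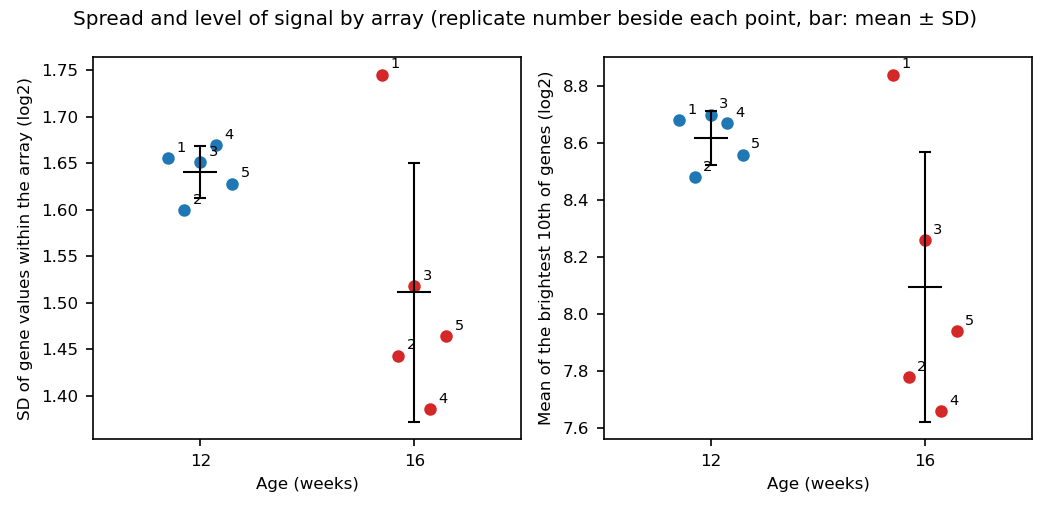
SD of gene values within each array (left) and mean log2 signal of the brightest 10th of genes (right) by age in weeks, with 1 point per array, its replicate number beside it, and bars at the mean ± SD of 5 arrays. Replicate 1 at 16 weeks sits above every array at 12 weeks in both panels, and the other arrays at 16 weeks sit below them.

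With the narrower spread went a trend of change on mean signal. On the mean of the arrays, bright genes had lower values at 16 weeks and dim genes did not, with a median log2 fold change of -0.53 in the brightest 10th of genes, -0.21 in the next 10th and 0.05 in the second dimmest. By array, the mean of the brightest 10th was 8.62 ± 0.0944 at 12 weeks and 8.1 ± 0.473 at 16 weeks (SD, n = 5 each). This difference did not pass an exact permutation test (p = 0.0556), and replicate 1 at 16 weeks, at 8.84, lay above every array at 12 weeks. Across the 18194 genes, which are not independent replicates, Pearson's r of log2 fold change with mean signal was -0.437. After a smooth curve of each array's deviation on mean signal was subtracted, r was 0.0436 and the median of the brightest 10th was 0.02. In this form a gene is compared with genes as bright as itself. Among the 181 brightest genes (the top 1%), 162 had a negative log2 fold change before removal and 70 after it.

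On the log2 values, 34 genes were lower at 16 weeks (0.187% of genes) and 1 was higher (0.0055%) at an adjusted p under 0.05 from limma. With the trend removed, 35 were lower (0.192%) and 7 were higher (0.0385%). Both kinds of value called 23 of the lower genes and the higher gene Tmem82, which is 68.6% of the genes called on log2 values and 57.1% of those called with the trend removed. The arrays of the 2 ages did not overlap in 34 of the 35 called genes, against 1.86% of all genes for falls and 0.791% for rises. With the trend removed they did not overlap in 41 of the 42, against 1.83% and 1.19% of all genes. Replicate 1 was the highest of the arrays at 16 weeks, and so nearest to 12 weeks, in 26 of the 34 lower genes. Without it, all 35 genes called on log2 values and all 42 called with the trend removed were called again, and 941 genes were lower and 94 higher on log2 values, and 157 lower and 115 higher with the trend removed. When any other array was left out, between 9 and 31 genes were lower on log2 values, and between 7 and 24 with the trend removed. As replicate 1 lay nearest to 12 weeks in most of the lower genes, leaving it out widens their difference. Called members of each list were counted for this omission alone, so the list counts without it, given below, are no support for a list. Psat1, Gpr155, Usp2, Tspan4 and Mthfd2 were called lower whichever of the 10 arrays was left out, on both kinds of value. In all, 8 genes were called in each of the 10 fits on log2 values, and 6 with the trend removed. Other calls depended on the array left out. On log2 values and with the trend removed, Asns was called in 2 and 5 of the 10 fits, Ret in 2 and 2, Aldh1a7 in 1 and 2, Ranbp2 in 1 and 3, and Slain2 in 1 and 1.

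**Figure D2:**
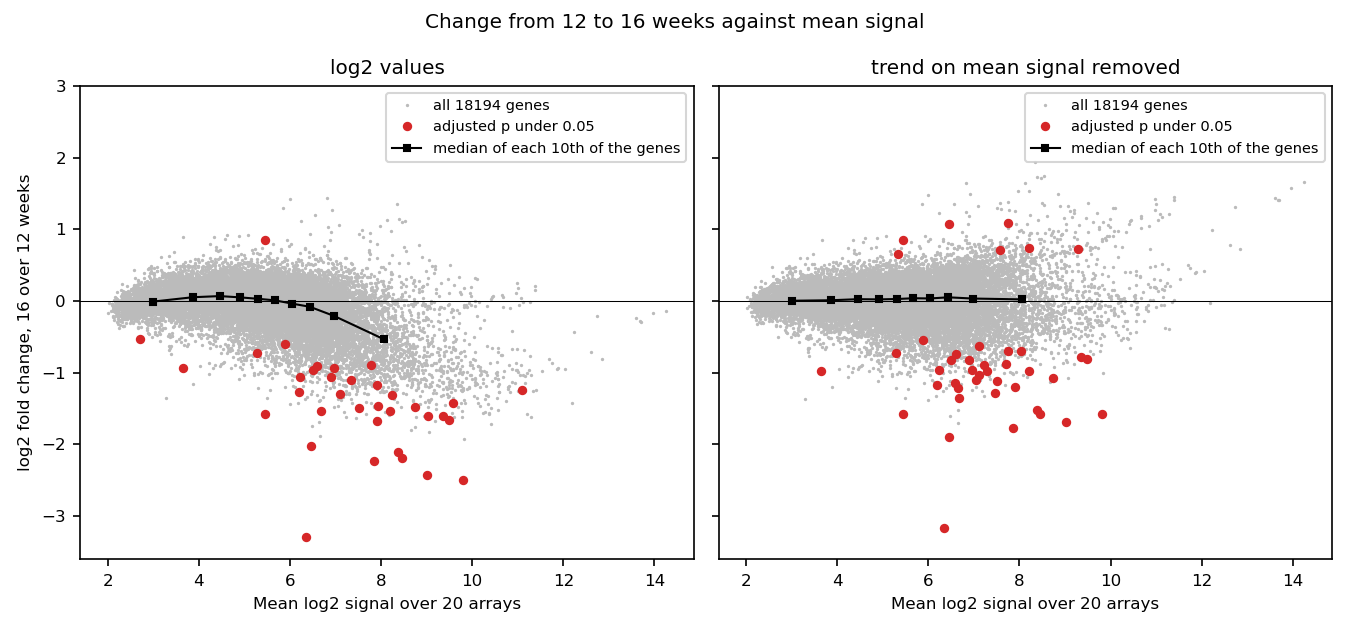
Log2 fold change from 12 to 16 weeks (vertical axis) against mean log2 signal over 20 arrays (horizontal axis) for 18194 genes, before (left) and after (right) removal of the trend, with called genes in red and the median of each 10th of the genes in black. The black line bends down to -0.53 among the brightest genes on the left and stays at 0.02 on the right, while most called genes lie well below it in both panels.

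The list of serine synthesis, one carbon metabolism and Atf4 targets held more falls than any other of these lists, which were chosen with earlier results known. Of 35 measured members, 5 fell (Psat1, Slc7a5, Asns, Mthfd2 and Aldh1l2), against 0.187% of all genes. None rose, and 11 had lower arrays without overlap at 16 weeks (1.86% of all genes). The median log2 fold change of the list was -0.79, against -0.02 for all genes, and 31 members had a negative value, against 53.2% of all genes (45.8% with the trend removed). With the trend removed the median was -0.35, against 0.03 for all genes, and again 5 members fell, with Atf5 in place of Aldh1l2. Of all genes, 0.192% fell in this form. Without replicate 1 at 16 weeks, 16 members were lower on log2 values and 11 with the trend removed, against 5.17% and 0.863% of all genes, and 1 was higher with the trend removed.

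Psat1, which makes phosphoserine from the product of Phgdh, had signals of 7.98, 7.39, 7.16, 7.78 and 7.88 at 12 weeks and of 5.28, 3.80, 4.61, 3.55 and 4.51 at 16 weeks. No array of either age came near the other group. Its change was -3.29 on log2 values and -3.17 with the trend removed (limma adjusted p = 0.000151 and 1.52e-05). The other probe set of Psat1 had a log2 fold change of -2.66. The mean signal of the brighter Psat1 probe set was 7.64 at 12 weeks and 4.35 at 16 weeks, beside 7.85 and 5.53 in the glands of 4 and 8 weeks. The neighbouring enzymes did not pass the test. Phgdh, the first enzyme of the pathway, had signals from 9.39 to 9.59 at 12 weeks and from 9.23 to 9.58 at 16 weeks, with a log2 fold change of -0.15 (95% interval -0.45 to 0.14, limma adjusted p = 0.647). Psph, the last enzyme, had 4.91 to 5.45 and 4.17 to 4.85, which did not overlap, and a log2 fold change of -0.61 (limma adjusted p = 0.306).

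Slc7a5 is the light chain of a transporter that brings large neutral amino acids into cells. Its signals were 8.42, 7.79, 8.50, 8.91 and 8.37 at 12 weeks and 7.37, 6.57, 6.88, 6.26 and 6.55 at 16 weeks. All arrays at 16 weeks were lower, and the gene fell by 1.67 (SE 0.27, limma adjusted p = 0.0094), with -1.20 after the trend was removed (adjusted p = 0.00183). Its partner, the heavy chain Slc3a2, had a log2 fold change of -1.79 with arrays that did not overlap, but it did not pass the test (limma adjusted p = 0.0782, 0.0561 with the trend removed). Of 25 measured amino acid carriers, Slc7a5 was the 1 that fell, and the median was -0.11 (0.01 with the trend removed). Of all genes, 0.187% fell on log2 values and 0.192% with the trend removed.

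Asns makes asparagine. Its signals lay between 10.04 and 10.30 at 12 weeks and were 9.60, 7.99, 9.0, 7.71 and 8.23 at 16 weeks, with replicate 1 nearest to the younger glands. It fell by 1.66 (SE 0.32, limma adjusted p = 0.0344) and by 0.81 with the trend removed (adjusted p = 0.0164), a smaller difference against genes of like brightness. The mean of Asns was 10.35, 8.91, 10.17 and 8.51 at 4, 8, 12 and 16 weeks, so it was already low at 8 weeks. Mthfd2, the mitochondrial folate enzyme, had 8.03, 7.80, 7.71, 8.38 and 7.66 at 12 weeks and 6.68, 5.97, 6.93, 6.48 and 6.07 at 16 weeks. The groups were well apart, and the gene fell by 1.49 (SE 0.23, limma adjusted p = 0.0054) and by 1.12 with the trend removed (adjusted p = 0.00183). Aldh1l2, which burns the folate-bound carbon in mitochondria, had 7.54 to 7.86 at 12 weeks and 6.14 to 6.83 at 16 weeks and fell by 1.1 (limma adjusted p = 0.0054), a call that was lost with the trend removed (-0.78, adjusted p = 0.0559). Aldh18a1, which opens proline synthesis and was not on the list, fell by 1.61 (limma adjusted p = 0.0477; -0.86 and 0.0757 with the trend removed), and all 5 of its probe sets had a negative value.

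The factors that act on these genes did not pass the test on log2 values. Atf4 mRNA had 8.86, 8.45, 8.64, 8.70 and 8.99 at 12 weeks and 8.59, 7.74, 8.42, 7.47 and 7.93 at 16 weeks, which overlapped. Its log2 fold change was -0.69 (limma adjusted p = 0.22) and -0.06 with the trend removed (adjusted p = 0.866). Atf5, a related factor, had -1.20 (limma adjusted p = 0.0565) and fell by 0.96 with the trend removed (adjusted p = 0.0425). Ddit3 and Trib3, which rise under ER stress, had -0.49 and -0.95, and Sesn2 had 0.27, none of which passed the test. Chac1, which degrades glutathione, had 8.51, 8.74, 7.78, 8.59 and 9.17 at 12 weeks against 7.58, 6.33, 7.22, 6.71 and 7.21 at 16 weeks. Its groups did not overlap, but its log2 fold change of -1.55 did not pass (limma adjusted p = 0.129).

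Atf4 acts with C/EBP partners at elements that read TGATGNAA on either strand. In the 250 bases before the start of transcription (RefSeq, GRCm38.p6), 9 of the 28 list members with a promoter in the table held these letters (32.1%), against 3.91% of the 27025 genes in the table. They were Aars, Asns, Chac1, Fgf21, Gars, Nupr1, Pck2, Slc7a11 and Vldlr. Such elements are part of what Atf4 targets are known for, so this share describes the list and tests nothing. Of the 5 members that fell, 3 had a promoter in the table and 1 of these, Asns, held the letters. The elements of Asns (chr6:7693210-7693272, minus strand), Chac1 (chr2:119351009-119351096, plus strand) and Pck2 (chr14:55540123-55540210, plus strand) are shown, as the groups of these genes did not overlap, with the match in capitals. It starts 23, 193 and 103 bases before the start of transcription.
Asns: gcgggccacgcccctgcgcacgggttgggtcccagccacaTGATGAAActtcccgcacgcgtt
Chac1: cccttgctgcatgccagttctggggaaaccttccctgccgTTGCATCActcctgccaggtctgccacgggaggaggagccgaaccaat
Pck2: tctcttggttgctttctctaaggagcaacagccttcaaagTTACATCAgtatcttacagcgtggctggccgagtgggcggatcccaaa

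**Figure D3:**
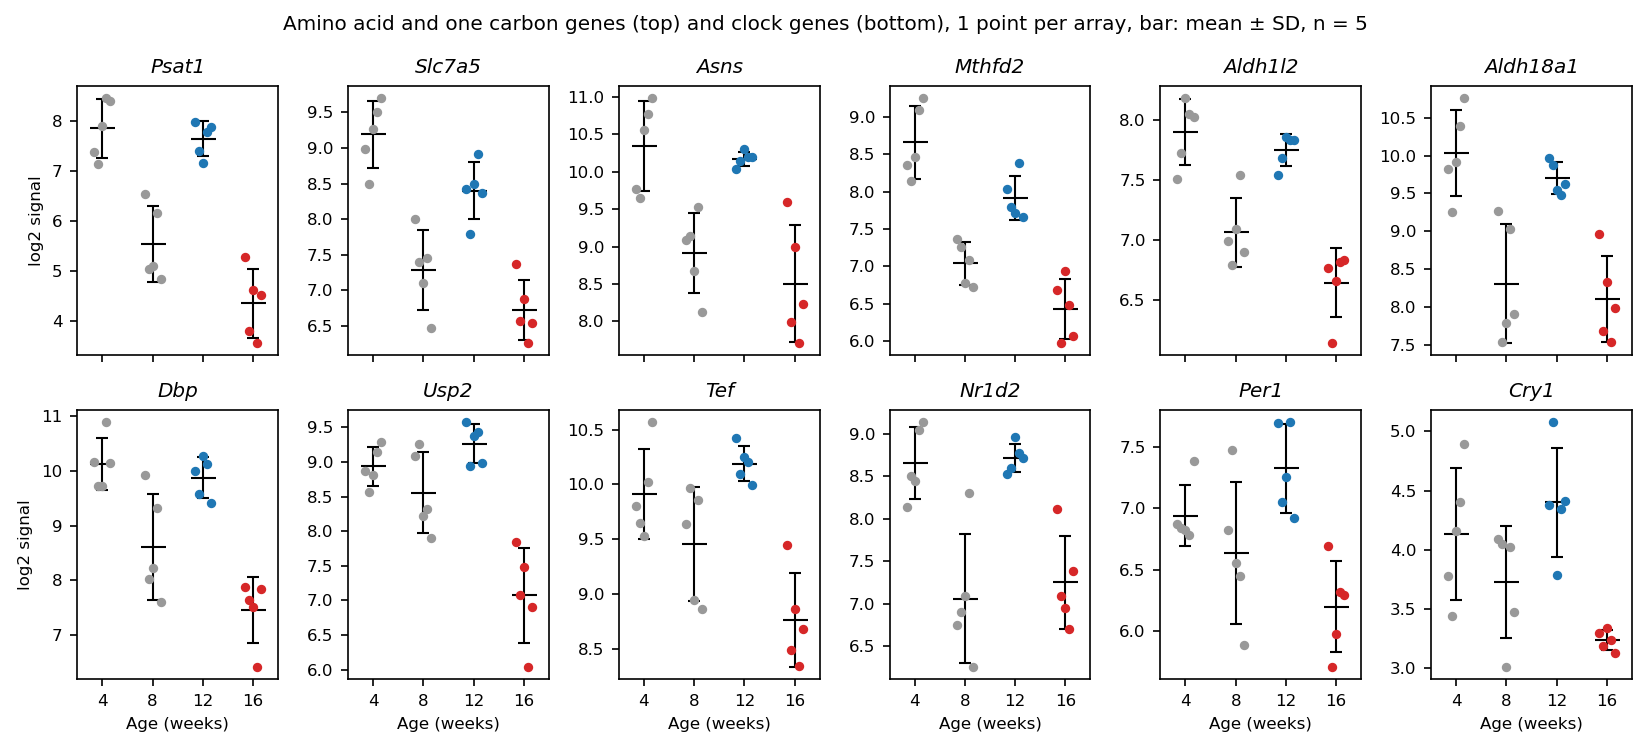
Log2 signal (vertical axis, range set for each gene) by age in weeks for 6 amino acid and one carbon genes (top) and 6 clock genes (bottom), with 1 point per array and bars at the mean ± SD of 5 arrays, 12 weeks in blue and 16 weeks in red. In every panel all arrays at 16 weeks lie below those at 12 weeks, as for Psat1 with 3.55 to 5.28 against 7.16 to 7.98.

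The clock list held 19 measured genes, of which 4 fell (Dbp, Usp2, Nr1d2 and Tef) and 0 rose, against 0.187% and 0.0055% of all genes. The groups did not overlap in 7 members, all lower at 16 weeks, against 1.86% of all genes. The values had both signs, as 12 had a negative log2 fold change, against 53.2% of all genes, and the median was -0.24 (-0.09 with the trend removed). With the trend removed, Dbp and Usp2 fell (0.192% of all genes) and the other members did not pass. Without replicate 1 at 16 weeks, 7 members were lower, and 5 with the trend removed, against 5.17% and 0.863% of all genes.

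Dbp, a factor of the clock's output that binds D-boxes, had signals from 9.42 to 10.28 at 12 weeks and of 7.87, 7.63, 7.51, 6.41 and 7.84 at 16 weeks. Replicate 4 at 16 weeks was far below the other arrays of its age, and the highest array at 16 weeks was still far below the lowest at 12 weeks. Dbp fell by 1.69 with the trend removed (limma adjusted p = 0.0109), and both of its probe sets had a negative value. The mean of Dbp was 10.13, 8.61, 9.88 and 7.45 at 4, 8, 12 and 16 weeks. Usp2, a deubiquitinase with a daily rhythm in many tissues, had 9.58, 8.95, 9.37, 9.44 and 8.98 at 12 weeks and 7.85, 7.08, 7.49, 6.04 and 6.90 at 16 weeks. The groups lay apart, and with the trend removed Usp2 fell by 1.58 (limma adjusted p = 0.000127), again with both probe sets negative. The mean of Usp2 was 8.94 at 4 weeks and 8.56 at 8 weeks, beside 9.27 and 7.07 at 12 and 16 weeks.

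Tef and Nr1d2 were less certain. Tef, a relative of Dbp, had 9.99 to 10.42 at 12 weeks and 8.34 to 9.45 at 16 weeks, and most of its fall went with the trend, with -1.42 before and -0.55 after removal (limma adjusted p = 0.0122 and 0.202). Nr1d2, a repressor of Arntl, had 8.53 to 8.96 and 6.71 to 8.12, with -1.47 and -0.99 (limma adjusted p = 0.0477 and 0.0822). The mean of Nr1d2 was 8.66, 7.06, 8.72 and 7.25 at 4, 8, 12 and 16 weeks. Other probe sets of both genes were dimmer and had log2 fold changes of 0.12 and 0.08 for Tef and 0.32 for Nr1d2.

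The feedback genes Per and Cry also had lower signals at 16 weeks, without passing the test. Cry1 had 4.38, 5.08, 3.79, 4.34 and 4.41 at 12 weeks and 3.30, 3.19, 3.34, 3.24 and 3.13 at 16 weeks, and Per1 had 7.69, 7.05, 7.25, 7.70 and 6.92 against 6.69, 5.71, 5.98, 6.32 and 6.29. Neither gene overlapped between ages, and their log2 fold changes were -1.16 and -1.13 (limma adjusted p = 0.0669 and 0.0576), or -1.20 and -0.93 with the trend removed. Cry2 had -0.85 without overlap, and Per2 and Per3 had -0.71 and -0.68 with adjusted p-values of 0.138 and 0.251 from limma. On the other side, the activators Clock, Arntl and Npas2 had positive values of 0.34, 0.23 and 0.67 (limma adjusted p = 0.341, 0.443 and 0.168). Npas2 was 5.03, 4.61, 5.05, 5.11 and 4.98 at 12 weeks and 5.78, 5.02, 5.19, 5.74 and 6.42 at 16 weeks, where only replicate 2 fell within the range of the younger mice. The output factor Hlf had -0.23 and Nr1d1 had 0.11, and neither passed. The hour at which the glands were taken is not given in the sources used here.

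Clock and Arntl bind the E-box, which reads CACGTG on both strands. It was found in the 250 bases before the start of 5 of 17 clock genes with a promoter in the table (29.4%), 8 of 27 lower genes with one (29.6%) and 6.86% of the 27025 genes in the table. Of the 4 clock genes that fell, 1 (Tef) held it. The other lower genes with an E-box were Aldh18a1, Ranbp2, Sgk1, Slc20a1, Ssr1, Top1 and Tspan4, which are not clock genes. The other clock genes with one were Per1, Cry1, Ciart and Bhlhe41. Ciart and Bhlhe41 had log2 fold changes of -0.13 and 0.39 (limma adjusted p = 0.729 and 0.266). D-box letters, TTATGTAA or TTACGTAA on either strand, were in 1 of the 27 lower genes (Homer2) and in 1.1% of all. None of the 3 motifs contains another, and a match is not evidence of binding. The windows around the E-boxes of Tef, Per1 and Cry1 are shown because these members had lower signal without overlap at 16 weeks. Tef has 2 starts on the plus strand, with the E-box in chr15:81802506-81802591 and in chr15:81811236-81811321. That of Per1 is in chr11:69098743-69098828 on the plus strand and that of Cry1 in chr10:85185069-85185154 on the minus strand, all with CACGTG in capitals.
Tef, first start: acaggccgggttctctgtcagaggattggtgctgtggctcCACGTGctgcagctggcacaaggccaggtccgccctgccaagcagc
Tef, second start: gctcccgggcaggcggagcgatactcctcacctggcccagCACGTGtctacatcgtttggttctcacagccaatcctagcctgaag
Per1: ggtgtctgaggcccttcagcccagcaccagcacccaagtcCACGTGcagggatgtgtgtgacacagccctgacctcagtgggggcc
Cry1: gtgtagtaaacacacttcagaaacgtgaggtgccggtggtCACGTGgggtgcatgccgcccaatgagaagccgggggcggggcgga

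Some lists had medians well below that of all genes on the log2 values while few or none of their members passed, and these medians were nearer to 0 after removal of the trend. Genes of ER folding and the secretory pathway, which make, fold and move the secreted proteins of the gland, had a median of -1.18 with 35 of 37 negative and 12 lower without overlap. Of all genes, 53.2% were negative, 1.86% were lower without overlap and 0.187% fell. Ssr1, a subunit at the protein channel of the ER, was the 1 member that fell (-1.48, SE 0.26, limma adjusted p = 0.0184), with signals from 9.13 to 9.55 at 12 weeks and from 7.44 to 8.44 at 16 weeks. With the trend removed, the median was -0.58 and 0 of 37 passed, Ssr1 included (adjusted p = 0.0631), while 19 were lower and 0 higher at an unadjusted p under 0.05, against 6.26% and 6.95% of all genes. Without replicate 1 at 16 weeks, 26 members were lower on log2 values, and 3 with the trend removed, against 5.17% and 0.863% of all genes. Hspa5, the main ER chaperone, had -1.93 and -1.01 on the 2 kinds of value (limma adjusted p = 0.153 and 0.228). The mean of the 37 members per array ran from 8.32 to 8.63 at 12 weeks and from 6.65 to 8.33 at 16 weeks, beside 6.88 to 8.38 at 8 weeks.

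All 67 genes of mitochondrial oxidative phosphorylation had a negative value, with a median of -0.89, and 40 of 41 cytosolic ribosomal proteins had one, with a median of -0.99. Of all genes, 53.2% had a negative value. None of either list passed the test of limma (38 and 26 were lower and 0 higher at an unadjusted p under 0.05, against 9.99% and 4.18% of all genes). After removal of the trend the medians were -0.28 and -0.01, and again 0 passed by limma. At an unadjusted p under 0.05, 8 oxidative phosphorylation genes were then lower and 1 higher, and 0 ribosomal proteins lower and 3 higher, against 6.26% and 6.95% of all genes. Both lists sit among the brightest genes, with a median rank of mean signal at the 96.0 and 99.4 percentile. The oxidative phosphorylation mean per array ran from 8.49 to 9.33 at 12 weeks and from 7.18 to 9.15 at 16 weeks, beside 7.23 to 9.07 at 8 weeks. That of ribosomal proteins ran from 9.49 to 10.12 and from 8.05 to 10.24, beside 8.24 to 10.09 at 8 weeks. Without replicate 1 at 16 weeks, 19 oxidative phosphorylation genes and 20 ribosomal proteins were lower on log2 values, and 0 of each with the trend removed by limma. The shares of all genes were 5.17% and 0.863% on the 2 kinds of value. Heat shock and proteasome genes had medians of -0.71 and -0.45 on the 2 kinds of value, again with 0 of 36 called by limma on either kind of value (19 and 16 were lower at an unadjusted p under 0.05). Without replicate 1 at 16 weeks, 12 of them were lower, and 2 with the trend removed, against the same shares of all genes.

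With all arrays, secretory products of the gland gave no called gene. All 13 genes measured for products of the granular convoluted tubules, the androgen-dependent ducts that store kallikreins and growth factors, were negative, with a median of -0.98 (-0.36 with the trend removed), and 6 of them were lower without replicate 1 at 16 weeks (0 with the trend removed by limma). Of all genes, 53.2% were negative, and 5.17% were lower without that replicate (0.863% with the trend removed). At an unadjusted p under 0.05 with all arrays, 7 tubule genes were lower and 0 higher, against 9.99% and 4.18% of all genes. With the trend removed, 4 were lower and 1 higher, against 6.26% and 6.95%. Klk1b16 had -1.67 with arrays that did not overlap, Egf had -1.09 and the neurturin gene Nrtn -0.18 (limma adjusted p = 0.153, 0.261 and 0.80). The 24 acinar genes had a median of -0.29, which turned to 0.23 with the trend removed, so that no direction can be given for them, and 7 of them were lower on log2 values without replicate 1 at 16 weeks (5.17% of all genes). Aqp5, the water channel of acinar cells, had -1.19 and -0.28 on the 2 kinds of value (limma adjusted p = 0.236 and 0.564). Duct ion transport had a median of -0.15 with 0 of 16 called by limma on either kind of value. At an unadjusted p under 0.05, 3 were lower and 0 higher on log2 values, against 9.99% and 4.18% of all genes. With the trend removed there were 0 of either, against 6.26% and 6.95%.

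In the lists without a called gene, the members with the lowest and highest log2 fold change were as follows, none of which passed the test. Among bright lists they were Cox5a (-1.42) and Sdhc (-0.08) for oxidative phosphorylation, Rplp2 (-1.56) and Rps16 (0.06) for ribosomal proteins, and Hspa8 (-1.53) and Psmb2 (0.20) for heat shock and proteasome. For gland products they were Klk1b16 (-1.67) and Tgfa (-0.05) in the tubule list, Dcpp3 (-1.71) and Amy1 (0.85) in the acinar list, and Atp1b1 (-1.20) and Foxi1 (0.18) in duct ion transport. Cell-cell junctions ran from the desmosomal Dsp (-1.12) to Tjp3 (0.77), focal adhesion and actin from the myosin Myh9 (-1.17) to the integrin Itga5 (0.25), and autophagy from Atg3 (-1.30) to Atg7 (0.33). Cholesterol and fatty acid synthesis ran from the desaturase Scd2 (-1.33) to the carboxylase Acaca (0.58), and insulin and mTOR signalling from the GTPase Rheb (-1.18) to the insulin receptor substrate Irs2 (0.45). Cell cycle genes ran from cyclin Ccnd1 (-1.08) to the spindle protein Tpx2 (0.79), interferon response genes from Ifitm3 (-0.96) to Oas2 (0.37), and antigen presentation from H2-D1 (-1.06) to H2-Oa (0.32). Neurotransmitter receptors ran from the glycine receptor Glrb (-0.80) to Chrng (0.41), and immediate early genes from Klf4 (-0.43) to Egr2 (0.31). The limma adjusted p-values of these genes ranged from 0.0721 for Ccnd1 to 0.952 for Tgfa on log2 values.

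**Figure D4:**
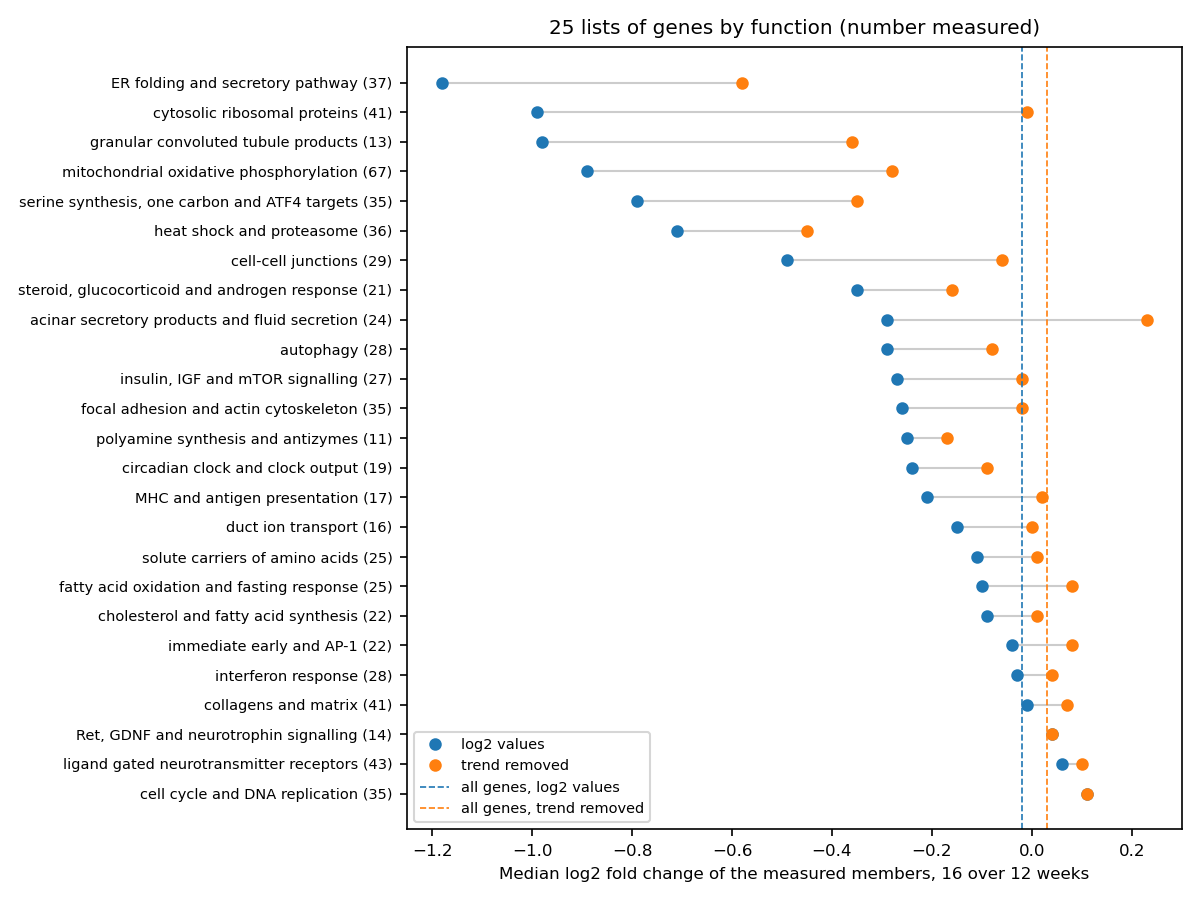
Median log2 fold change from 12 to 16 weeks (horizontal axis) of the measured members of 25 lists of genes, before (blue) and after (orange) removal of the trend, with dashed lines at the medians of all genes. The lists of bright genes at the top moved most between the 2 kinds of value, as for ribosomal proteins from -0.99 to -0.01, and the acinar list crossed 0.

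Of the called genes outside the lists, those that act on glycans, vesicles or protein folding are given first, a grouping made after their values were seen and not tested. Galnt3, which starts mucin-type glycans, lay between 9.87 and 10.04 at 12 weeks and was 9.23, 7.88, 8.65, 7.70 and 8.18 at 16 weeks. The younger glands were close together and all higher, and it fell by 1.60 (SE 0.26, limma adjusted p = 0.0094) and by 0.78 with the trend removed (adjusted p = 0.0272). Nus1, which helps make the dolichol that carries N-glycans, fell by 1.17 (limma adjusted p = 0.0147) with a negative value in all 6 of its probe sets, but its call was lost with the trend removed (-0.69, adjusted p = 0.0568). Mgat4a and Pofut2, which add sugars to proteins, and Slc35a3, which carries a sugar nucleotide into the Golgi, passed only with the trend removed, with -1.07, -1.11 and -0.98 (limma adjusted p = 0.0481, 0.0283 and 0.0266). Exoc5, a part of the exocyst that tethers vesicles, fell by 0.63 in the same way (limma adjusted p = 0.0475). Hspa13, a chaperone linked to the ER, had 7.25, 7.52, 7.46, 7.09 and 7.22 at 12 weeks and 5.75, 4.77, 5.74, 4.59 and 5.55 at 16 weeks. All arrays were lower at 16 weeks, and its fall was -2.03 before and -1.89 after removal (limma adjusted p = 0.0231 and 0.0164), although its other 3 probe sets had values of 0.02, -0.01 and -0.03.

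Of 11 measured polyamine genes, Azin1 fell, against 0.187% of all genes on log2 values and 0.192% with the trend removed. Azin1 shields ornithine decarboxylase from its antizymes, and its signals were 8.75, 8.75, 8.21, 8.81 and 8.97 at 12 weeks and 7.09, 6.17, 6.75, 5.66 and 6.67 at 16 weeks. The ages were far apart, and with the trend removed it still fell by 1.78 (limma adjusted p = 0.0109). Odc1, the decarboxylase itself, had -1.64 and -1.17 without overlap (limma adjusted p = 0.125 and 0.0858). The antizyme Oaz1 had -1.31, which shrank to -0.28 with the trend removed.

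Sgk1, a kinase that steroid hormones induce and that acts on sodium channels, fell by 1.58 on log2 values and by 1.57 with the trend removed (limma adjusted p = 0.0231 for both). Its signals were 6.15, 5.77, 6.41, 6.52 and 6.19 at 12 weeks and 5.49, 4.08, 4.98, 4.05 and 4.54 at 16 weeks, and as a gene of middling brightness it lay where the trend was flat. It was the 1 of 21 steroid response genes that passed, against 0.187% of all genes that fell on log2 values and 0.192% with the trend removed. The glucocorticoid targets Tsc22d3 and Fkbp5 had -0.64 and -0.57 (limma adjusted p = 0.269 and 0.373). Ret, the receptor tyrosine kinase of the glial cell line-derived factors, was the 1 of 14 genes of its pathway that fell, with 6.99, 6.87, 6.49, 7.42 and 6.89 at 12 weeks and 6.38, 5.25, 5.95, 5.78 and 6.00 at 16 weeks. It was at -0.96 with the trend removed (limma adjusted p = 0.0287), while its other, dimmer probe set had -0.03 on log2 values. Its coreceptors Gfra1 to Gfra4 had values between 0.01 and 0.12 on log2 values.

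Postn, a matrix protein of growing and repairing stroma, was the 1 of 41 collagen and matrix genes that fell. The shares of all genes were 0.187% on log2 values and 0.192% with the trend removed. Postn is given by array. It had 7.03, 6.73, 7.60, 7.38 and 7.37 at 12 weeks and 6.27, 5.83, 6.21, 6.25 and 6.29 at 16 weeks. The groups did not overlap, and Postn fell by 1.05 (SE 0.19, limma adjusted p = 0.0237) and by 0.83 with the trend removed (adjusted p = 0.0475). The list as a whole had a median of -0.01, and Col3a1 had -0.54 and -0.01 on the 2 kinds of value. Ligand gated neurotransmitter receptors had a median of 0.06, interferon response genes of -0.03 and genes of antigen presentation of -0.21, with 0 called by limma among 43, 28 and 17 on either kind of value. At an unadjusted p under 0.05 on log2 values, 1 was lower and 1 higher, 2 lower and 0 higher, and 1 lower and 2 higher, against 9.99% and 4.18% of all genes. After removal of the trend these counts were 1 and 0, 1 and 3, and 0 and 2, against 6.26% and 6.95%. Cell cycle genes had a median of 0.11 with 0 of 35 called by limma on either kind of value (3 lower and 5 higher at an unadjusted p under 0.05, and 1 and 5 with the trend removed), while Cks1b, a regulatory subunit of cyclin-dependent kinases that was not on the list, fell by 1.28 with the trend removed (limma adjusted p = 0.0425).

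Other falls called on both kinds of value included genes of diverse roles. Gpr155, an integral membrane protein, had 10.81, 10.40, 10.67, 10.86 and 10.62 at 12 weeks and 9.75, 7.86, 8.14, 7.10 and 8.01 at 16 weeks, and it was lower in all 5 arrays. It fell by 1.58 with the trend removed (limma adjusted p = 1.52e-05). Tspan4, a tetraspanin, had -1.53 and -1.36, and Homer2, a scaffold of calcium signalling in exocrine cells, had -1.53 and -0.98 (limma adjusted p = 0.00211 and 0.0266 with the trend removed). Aldh1a7, an aldehyde dehydrogenase, fell by 2.11 and 1.51 (limma adjusted p = 0.0344 and 0.0275). Slco4c1, an organic anion transporter of low signal, fell by 0.94 and 0.98 (limma adjusted p = 0.0231 for both). The fall of Slco4c1 was small but tight, from signals of 3.91 to 4.08 at 12 weeks to 2.86 to 3.20 at 16 weeks, with a second probe set that had a value of 0.14.

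Among the remaining genes called on both kinds of value, Ranbp2, a protein of the nuclear pore, had -1.30 and -1.03 (limma adjusted p = 0.0478 and 0.0283), with a negative value in all 4 of its probe sets. Hnrnph2, an RNA-binding protein, had -1.26 and -1.17, Slain2, which binds microtubules, -0.96 and -0.82, and Ttc37, a partner of the RNA exosome, -0.91 and -0.74. Adpgk, a glucokinase that uses ADP, had -0.72 and -0.73, and Slc20a1, a phosphate carrier, -0.60 and -0.54. The arrays of the 2 ages did not overlap in any of these 6 genes. A further 6 falls passed with the trend removed alone: Mmgt1 (-1.21), Smpdl3b (-1.14), the RNA-binding protein Larp4 (-0.89), the import receptor Ipo7 (-0.87), Arfgef3 (-0.70) and Ginm1 (-0.69), with limma adjusted p-values from 0.0272 to 0.0475. On log2 values these had -1.38, -1.30, -1.19, -1.29, -1.20 and -1.12 and did not pass (limma adjusted p from 0.0565 to 0.0907).

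Of the 11 genes called on log2 values alone, Eif4g2 moved most between the 2 kinds of value. This translation factor was among the brightest genes, with 11.37 to 11.95 at 12 weeks and 9.71 to 11.23 at 16 weeks, and its log2 fold change of -1.25 (limma adjusted p = 0.0231) became -0.06 with the trend removed (adjusted p = 0.94). Top1, the DNA topoisomerase, went from -0.90 to -0.46, and Fndc3a from -1.31 to -0.75. The other 8 were Tef, Nr1d2, Aldh18a1, Ssr1, Nus1, Aldh1l2, Cpeb3 and Ifi207.

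Rises were few. Tmem82, a membrane protein, had 5.37, 5.26, 4.54, 5.25 and 5.33 at 12 weeks and 6.35, 6.28, 5.65, 5.94 and 5.77 at 16 weeks. It was higher in all 5 older mice, by 0.85 on both kinds of value (limma adjusted p = 0.0477 and 0.0475), and it had 1 probe set. Angptl4, an inhibitor of lipoprotein lipase that fasting induces, had 4.94, 5.49, 5.09, 4.94 and 4.75 at 12 weeks and 5.81, 5.71, 5.66, 5.83 and 5.49 at 16 weeks. The lowest older array equalled the highest younger one to 2 decimals, and Angptl4 rose by 0.66 with the trend removed (limma adjusted p = 0.0465), against an adjusted p of 0.0565 on log2 values. Its other, dim probe set had -0.19. Slc25a34, a mitochondrial carrier, had 6.17 to 6.55 at 12 weeks and 8.41, 6.96, 6.81, 6.78 and 7.35 at 16 weeks, with replicate 1 the highest. It rose by 1.07 with the trend removed (limma adjusted p = 0.0475), and its log2 fold change was 0.94 with all arrays and 0.65 without that replicate.

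The other 4 rises with the trend removed were Fads2b, named for fatty acid desaturases, Myo5c, a motor of secretory granules, Atp13a2, a lysosomal pump, and Mroh1, with 1.09, 0.74, 0.73 and 0.72 (limma adjusted p = 0.0109, 0.0475, 0.0475 and 0.0283). These genes were bright, at or above the 92.0 percentile of mean signal, and on log2 values their changes were 0.66, 0.19, -0.08 and 0.33, which did not pass. Without replicate 1 at 16 weeks the changes on log2 values were 0.32, 0.05, -0.33 and 0.11. Their rise is thus one against genes of like brightness, and Atp13a2 had the opposite sign before removal. Of the 25 fatty acid oxidation and fasting genes, Angptl4 was the 1 called, and the median was -0.10 (0.08 with the trend removed). The share of all genes called higher with the trend removed was 0.0385%.

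**Figure D5:**
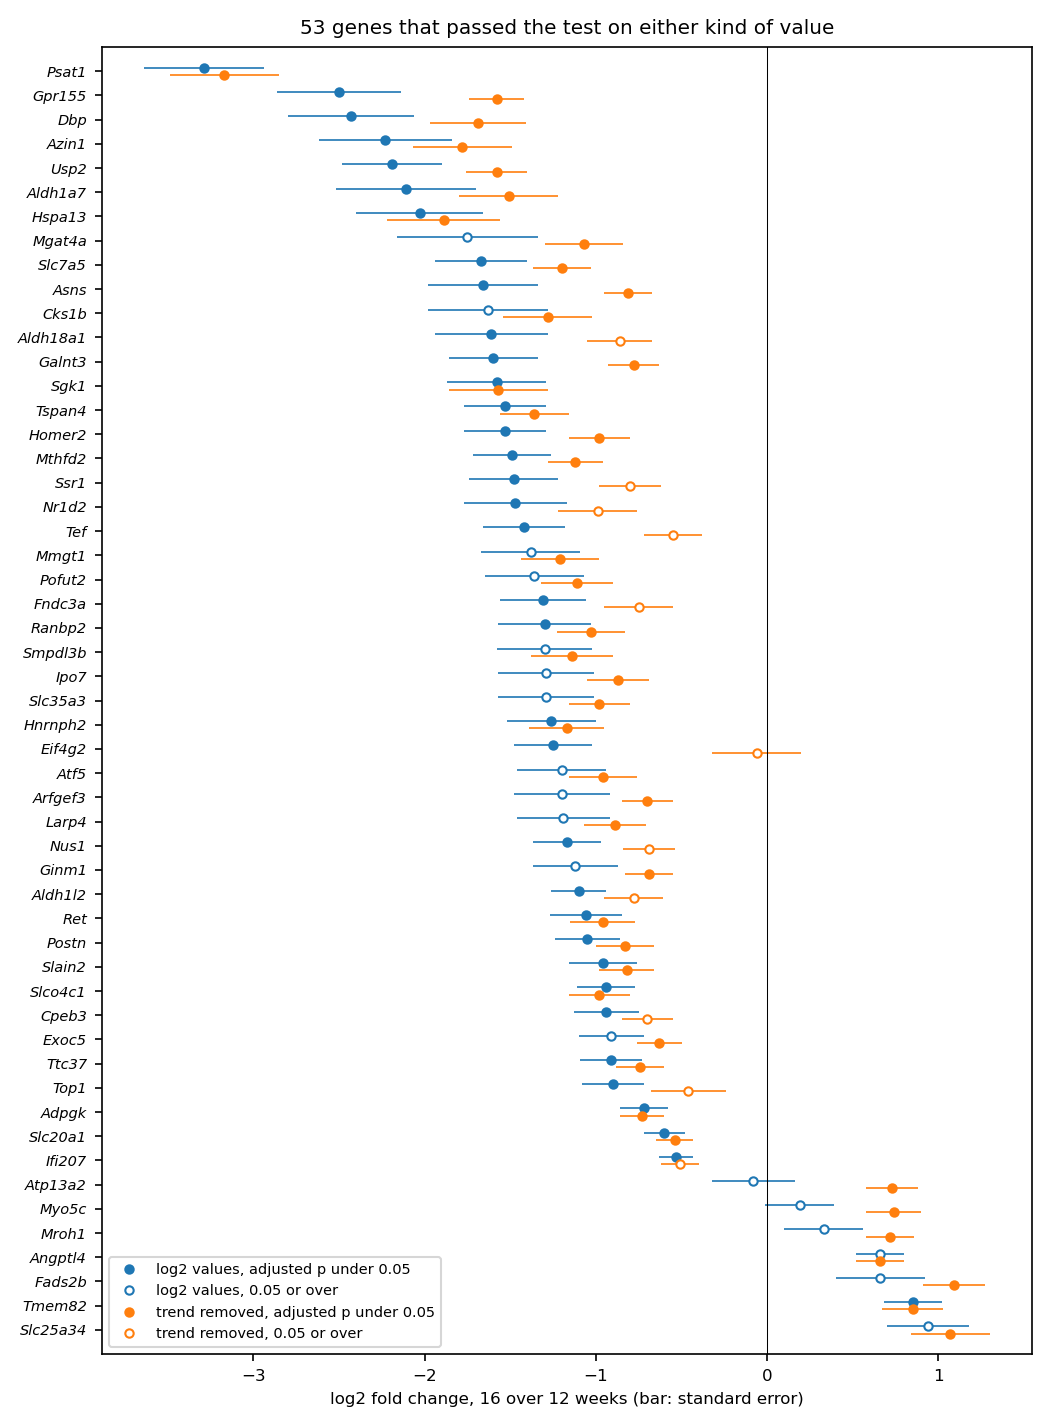
Log2 fold change from 12 to 16 weeks (horizontal axis) of the 53 genes called on either kind of value, in blue on log2 values and in orange with the trend removed, with filled points for an adjusted p under 0.05 and bars for the standard error. Psat1 and Sgk1 hardly moved between the 2 kinds of value, while Eif4g2 went from -1.25 to -0.06 and Atp13a2 from -0.08 to 0.73.

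Marker genes of cell types did not pass the test of 16 against 12 weeks: 0 of the 125 measured members of 13 marker lists were called by limma on either kind of value. At an unadjusted p under 0.05, 15 were lower and 5 higher on log2 values, against 9.99% and 4.18% of all genes. After removal of the trend, 7 were lower and 12 higher, against 6.26% and 6.95%. The pooled counts were uneven between cell types. Of the 6 tubule markers, 4 were lower and 0 higher on log2 values (3 and 1 with the trend removed), with a median of -1.04 (-0.56 with the trend removed). Of the 11 acinar markers, 3 were lower and 0 higher (0 and 3 with the trend removed). The acinar and tubule markers that define this gland had median ranks of mean signal over all arrays at the 99.0 and 97.9 percentile. In whole glands, fewer cells of a type and less RNA per cell cannot be told apart. The mean signal of the 6 tubule markers ranged from 9.28 to 10.65 at 12 weeks and from 8.21 to 10.11 at 16 weeks, and that of the 11 acinar markers from 9.07 to 10.24 and from 8.19 to 10.34. Fibroblast markers ranged from 6.37 to 6.77 and from 6.00 to 7.16, and adipocyte markers from 5.31 to 7.01 and from 5.11 to 6.25. These ranges overlapped between the ages, and their part in the changes was not tested. Some acinar markers differed widely between mice of the same age. The SD at 12 and 16 weeks was 2.92 and 3.66 for Amy1, 3.12 and 2.98 for Bpifa2 and 1.93 and 0.7 for Dcpp1, beside 0.22 and 0.93 for Aqp5. The labels say salivary gland without naming which, and the cause of this spread was not tested.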

How the data were processed

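The deposited files hold log2 signals of 45101 probe sets for 20 arrays, which the authors made from scanned arrays with RMA (background correction and quantile normalization) in Expression Console 1.1. Which arrays were normalized together is not given in the sources used here. Of the probe sets, 34958 carried 1 gene symbol, 932 several and 9211 were not listed, and each of 18194 genes was read by its probe set of highest mean. The 2 ages were contrasted in a limma fit (3.58.1, R 4.3.3) to all 20 arrays with 1 mean per age, and p-values were adjusted over the genes by Benjamini and Hochberg (threshold 0.05). For the trend, a lowess curve (span 0.3) of each array's deviation from the gene means on mean signal was subtracted. On generated values, not those of the arrays, with added changes of 1 and 2 (log2), limma called 67 and 97 of 100 genes, with 5 false calls. Recovery on the arrays themselves, with their trend and differing spread of signal, was not tested. Named were all genes called on log2 values, of those called with the trend removed alone at most 15 falls and 15 rises, and in each list the called members or else the lowest and highest. The members and lists were chosen with earlier results of these data known. Signals of an array give no counts, so precision rests on 5 mice per age. Mice were separate animals per the labels. Alternatives were other normalizations, probe sets, filters, variance models and blocks, a span of 0.6, a covariate for each array's spread of signal, and leaving out each array.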

Additional observations from a re-analysis of the deposited data

Results flagged for a closer look

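Among 108 sets of 5 arrays examined (53 called genes and the SD of gene values, at 12 and at 16 weeks), 7 held 1 array far from the other 4, where chance gives about 1 in 20. At 12 weeks, Smpdl3b was highest in replicate 1 (log2 signal 7.30), Slain2 highest in replicate 3 (7.50) and Tmem82 lowest in replicate 3 (4.54). At 16 weeks, Dbp was lowest in replicate 4 (6.41), Ipo7 highest in replicate 1 (7.90), and Aldh1l2 and Postn lowest in replicate 2 (6.14 and 5.83).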

How the results depend on the processing

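Arrays carry no depth, and 5 mice per age limit the precision. All 35 genes called on log2 values and all 42 called with the trend removed kept their sign under each alternative that tested them, apart from other probe sets of some genes and Atp13a2, given last. Counts of genes changed more. On log2 values, 34 lower and 1 higher became 995 and 169 with array weights, 22 lower with limma-trend and robust variances, 18 and 0 with the mean of probe sets, and 111 and 0 with only the 10 arrays of these ages. Higher genes numbered 7 with cyclic loess and 2 with median centring or above the 40th percentile of mean signal. Leaving out 1 array gave 9 to 941 lower and 0 to 94 higher. With the trend removed, 35 lower and 7 higher became 345 and 249 with array weights, 23 and 1 with limma-trend and robust variances, 23 and 4 with each array's spread of signal as covariate, and 87 lower with only the 10 arrays, and leaving out 1 array gave 7 to 157 lower and 0 to 115 higher. The difference in SD of gene values, -0.129, ranged from -0.188 to -0.0979 when 1 array was left out. Of the arrays left out in turn, replicate 1 at 16 weeks gave the highest counts, and array weights gave higher ones still. The cause was not tested.

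Replicate numbers did not pair the mice, as the deviations of same-numbered arrays correlated between -0.171 and 0.137. With a replicate block, 15 genes were lower and 0 higher on log2 values, and 19 and 4 with the trend removed.

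Other probe sets of genes called lower had a positive value: Hspa13 0.02, Homer2 0.24, Ssr1 0.23, Nr1d2 0.32, Tef 0.12 and 0.08, Fndc3a 0.13, Eif4g2 0.18 and 0.03, Slain2 0.17, Cpeb3 0.09, Slco4c1 0.14, Slc20a1 0.13 and Mgat4a 0.03. The other probe set of Angptl4, which was called higher, had -0.19. Atp13a2 had -0.08 when the trend was not removed.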

Other observations

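When all 45101 probe sets were tested together, limma called 36 lower and 2 higher. Among them were 4 probe sets without a listed gene, named here after their values were seen. On the log2 scale 3 of these were at -0.69, -1.24 and -0.98 (limma adjusted p = 0.0362, 0.0489 and 0.0489), and 1 was higher at 16 weeks, at 0.63 (limma adjusted p = 0.0228).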
